A study of Chilo suppressalis with 6 samples.

Results

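The transcripts that varied most among replicates in both groups were described in larvae of *C. suppressalis*, the striped rice stem borer. They were 150 of the 38966 genes in the table, and they were selected on measured values. Rows with identical values were counted once, which left 33948. Of these, 4482 had a mean of 10 FPKM or more over the 6 libraries. FPKM counts fragments per kilobase of a gene, scaled by the library's total. The 100 genes with the highest mean were dropped, and 3241 of the 4382 left had FPKM ranges that overlapped between the groups. For these 3241 genes the SD of log2(FPKM + 1) was taken over the 3 libraries of each group, and the 150 genes with the highest value of the smaller SD became the members. The rule thus used the level, the spread and the overlap of the groups in all 6 libraries, so every value below is a description and no test was made.

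Larvae of a laboratory sensitive population received artificial diet that held 0.8 g/kg (E)-β-farnesene (Eβf), a volatile sesquiterpene of rice, or the diet with solvent alone. They were taken in the 3rd instar, and poly(A) RNA of 3 samples per group was sequenced. The sources name 6 larvae for the RNA, and whether a library holds 6 larvae or 1 is not settled, so each SD is between libraries. Day within the instar was not given for the libraries and cannot be told apart from other differences among them. The libraries are called control 1 to 3 and Eβf 1 to 3, and which set is Eβf was read from the letters of the column names, on which every direction rests.

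As background, an insect larva passes through a feeding period and a moult within each instar, and many genes of the epidermis, gut and fat body are transcribed for only part of that cycle. RNA of whole larvae mixes all tissues, and fewer cells of a type and less RNA per cell cannot be told apart in it. IDs that start with evm are gene models of the genome annotation, and IDs that start with MSTRG are loci that StringTie put together from the reads. Reads that fit several near-identical copies or overlapping loci can be given to one locus or to another, so values of such loci are uncertain. The reference used for names lists 11366 genes and matched 0 of the 38966 IDs, so no member could be given a function and no pathway or cell marker could be counted.

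Depths relative to control 1 were 0.966 to 1.52, as read from the steps between low FPKM values, and the counts behind single values are unknown. The members held 0.777% to 1.55% of the FPKM of a library. None of the 12 genes with qPCR primers in the study was a member (0 of 12). Over the 3241 genes that met the conditions, control 3 lay low, with a median of -0.55 in log2 from the group mean of each gene, and Eβf 3 lay high, with 0.51. Eβf 1 also lay low (-0.39). Control 1 and control 2 were at 0.21 and 0.33, and Eβf 2 was at -0.066. The study's own summary of the reads places control 3 and Eβf 3 at the opposite ends of GC content and gives both the lowest aligned share and base quality, and the part of these in the members' values was not tested.

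The smaller SD ran from 1.73 to 6.25 in log2 among the members, with a median of 2.32, beside a median of 0.53 over the 3241 genes. Just inside the limit were MSTRG.8314 (1.740) and MSTRG.28373 (1.735). Just outside were MSTRG.26817 (1.731) and MSTRG.28958 (1.730), so the limit cuts through a continuous range. In 79 members the larger SD was that of the control and in 71 that of Eβf. In the 83 members above 0 in all libraries, the highest FPKM of a group was a median of 44.4 times the lowest in the control and 33.7 times in Eβf. Neither group held nearly all of the larger SDs. Membership depended on single libraries, since 59 of the 150 were also chosen without control 3, 74 without Eβf 1 and 92 without Eβf 3.

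**Figure D1:**
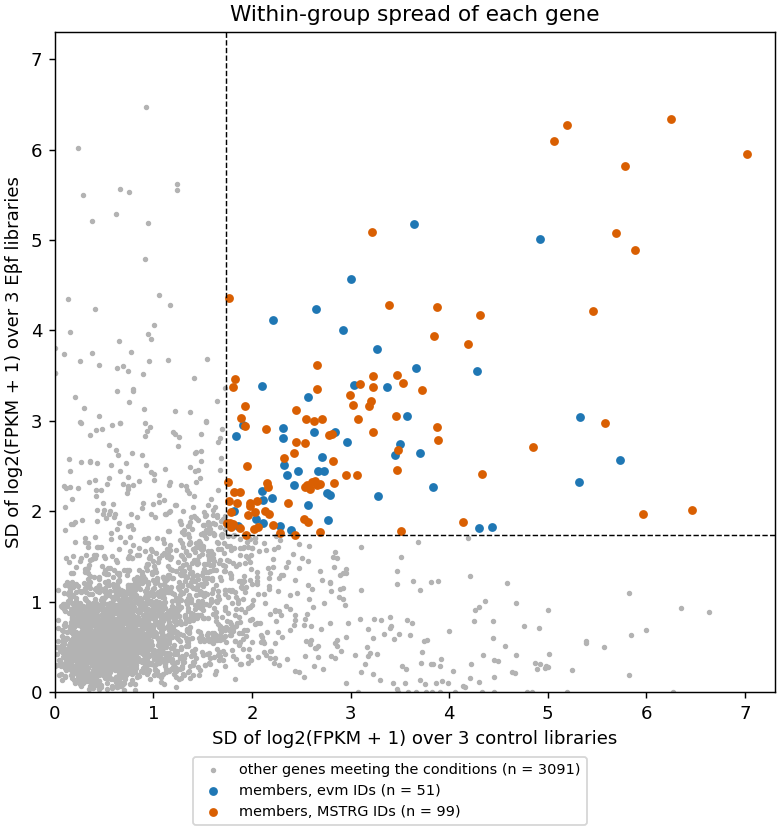
Each point is a gene, with the SD of log2(FPKM + 1) over the 3 control libraries on the x axis and over the 3 Eβf libraries on the y axis. Dashed lines mark the smallest SD of a member (1.73), and the members, evm gene models in blue and MSTRG loci in orange, fill the upper right corner while every other gene lies below a line in 1 or both groups.

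MSTRG loci made up 99 of the 150 members (66.0%) but 41.2% of the genes that met the conditions. The other 51 members were evm gene models. A listed value of exactly 0 in at least 1 library was found in 67 members (44.7%) and in 6.94% of the 3241 genes. A 0 beside high values of the same group gives a large SD, so the rule itself favoured such genes and the excess is no separate result. In 42 members a library of each group was at 0, as in 69 of the 3241 genes. The 0 values were not spread evenly over ID kinds, since 60 of the 99 MSTRG members had one and 7 of the 51 evm members did. Over the 3241 genes the difference was of the same kind, with a 0 in 14.7% of MSTRG loci and 1.52% of evm models.

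Within each group, 1 of the 3 libraries can be set apart as the one farther from the middle value on the log2 scale, either high or low. This gives 36 patterns, and the members held 33 of them. The most frequent was control 3 high with Eβf 1 low, in 32 members (21.3%) beside 6.94% of the genes that met the conditions. Control 3 low with Eβf 3 high followed, in 20 members (13.3%), but it was the leading pattern over the 3241 genes (25.4%). Control 3 low with Eβf 2 low was held by 11 members (7.33%, beside 9.01%) and control 3 low with Eβf 1 high by 10 (6.67%, beside 2.99%). The other 77 members were scattered over patterns with 8 members or fewer. Control 3 was the library set apart in the control in 96 of the members, 54 low and 42 high, and the members were thus divided over its 2 sides where 55.6% of the 3241 genes had it low and 14.3% had it high.

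**Figure D2:**
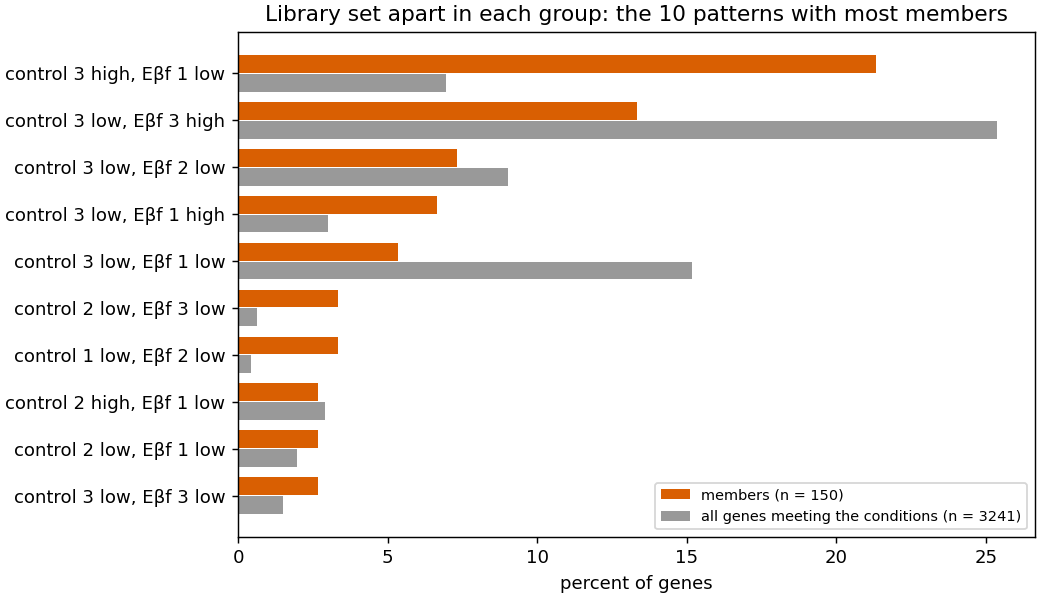
Bars give the percent of genes in each pattern, the 150 members in orange and the 3241 genes that met the conditions in grey, for the 10 patterns with most members. Control 3 high with Eβf 1 low held 21.3% of the members and 6.94% of all genes, while control 3 low with Eβf 3 high held 13.3% and 25.4%.

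**Figure D3:**
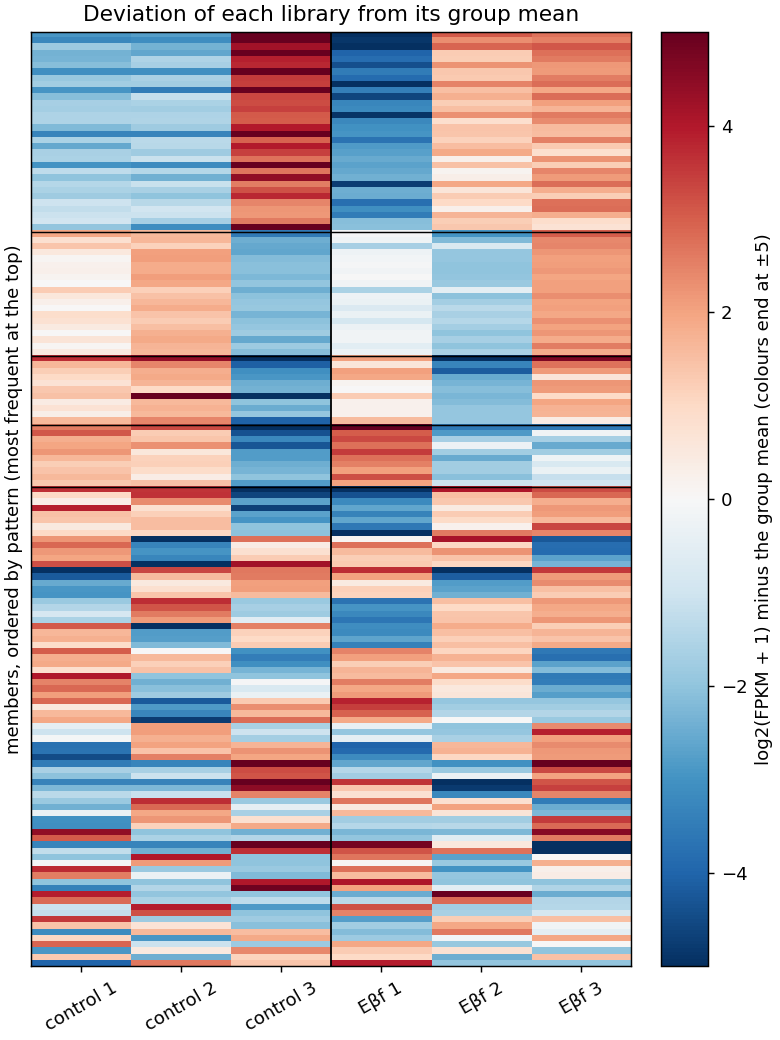
Each line of the map is a member and each column a library, coloured by log2(FPKM + 1) minus the mean of its group, with lines between the 4 most frequent patterns (32, 20, 11 and 10 members from the top). The top block is red in control 3, Eβf 2 and Eβf 3 and blue in control 1, control 2 and Eβf 1, and the lower 77 members show mixed colours.

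The most frequent pattern was close to on and off. Among its 32 members the median FPKM was 0.412, 0.569 and 92.9 in control 1 to 3 and 0.511, 49.3 and 96.7 in Eβf 1 to 3. The rule asked for overlapping ranges and a large SD in both groups. High and low libraries within each group thus came with the choice of genes, and a split across the treatment is no separate result. Here the libraries control 1, control 2 and Eβf 1 were low together, and control 3, Eβf 2 and Eβf 3 were high together. In 35 members all 3 of the latter libraries lay above all 3 of the former (23.3%, beside 10.7% of the 3241 genes), and where the low libraries were above 0 the lowest high library was a median of 27.1 times the highest low one. With more than 10 FPKM in each of control 3, Eβf 2 and Eβf 3 and less than 5 in each of the other libraries, 26 members remained of 36 such genes among the 3241. Genes with such gaps tend to have a large SD in both groups, so the rule itself favoured them. The mirror image, with control 1, control 2 and Eβf 1 above the rest, was seen in 16 members (10.7%, beside 5.15% of the 3241 genes). With the same limits 2 members remained, of 4 such genes among the 3241.

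The pattern held 26 evm models (81.2%) and 6 MSTRG loci, beside 70.7% evm among all genes of this pattern that met the conditions and 58.8% evm among the 3241. evm_014703, the member with the highest smaller SD of the pattern (4.92), had 0.243, 0.401 and 483 FPKM in control 1 to 3 and 0.263, 587 and 453 in Eβf 1 to 3. The 3 high libraries were close to each other, and the other 3 were near 0 in both groups. evm_002066 had 1.22, 0.991 and 33.0 FPKM in control 1 to 3 and 18.6, 126 and 637 in Eβf 1 to 3. It differed from evm_014703 in that Eβf 1 was low only within its group, and its mean was 4.46 higher in log2 in Eβf, with within-group SDs of 2.32 and 2.52. Other members differed in the order of their high libraries, and 3 were picked after their values were seen. evm_004104 had 0.642, 0.636 and 978 FPKM in the control and 0.341, 37.4 and 64.0 in Eβf. MSTRG.7541 had 1.12, 0.457 and 1409 FPKM in the control and 0.616, 47.9 and 64.8 in Eβf. In both, control 3 stood far above the high Eβf libraries. evm_012056 showed the opposite order among the high libraries, with 0.195, 0.214 and 43.2 FPKM in the control and 0.0835, 231 and 289 in Eβf.

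Of the 8 pairs of members with neighbouring IDs, 1 lay wholly in this pattern, evm_007531 and evm_007533, and it was picked after its values were seen. evm_007531 had 0.521, 0.0465 and 97.9 FPKM in control 1 to 3 and 0.254, 588 and 676 in Eβf 1 to 3. evm_007533 had 0.234, 0.248 and 1206 FPKM in the control and was listed at 0, 19.7 and 22.1 in Eβf. The ID between them, evm_007532, was no member because its mean was among the 100 highest, and it had 9.72, 3.40 and 4703 FPKM in the control and 1.61, 7560 and 6836 in Eβf. All 3 consecutive models were thus high in control 3, Eβf 2 and Eβf 3, with different balances between the groups.

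The pattern reached beyond the members. The mean log2 profile of the 32 was correlated over the 6 libraries with every gene of 1 FPKM or more on average (12042 genes), as a description with no p. Of the 32 members themselves, 20 had r of 0.95 or more with their mean profile, and the lowest r was 0.84. At r of 0.95 or more were 78 genes, 48 evm models and 30 MSTRG loci (38.5%, beside 48.7% of the genes compared), and 20 of the 78 were members. Their summed FPKM made up 0.0477%, 0.043% and 1.61% of control 1 to 3 and 0.0508%, 1.63% and 1.75% of Eβf 1 to 3. The 3 high libraries belong to both groups and came close to each other in this sum. Which libraries were high was set by the choice of genes, and the sum rested largely on a few abundant ones. The most abundant of the set was evm_004690, with 1.20, 0.820 and 15689 FPKM in the control and 1.00, 13735 and 13962 in Eβf, and it held 48.8% of the mean FPKM of the set. Like evm_007532, which held a further 21.5%, evm_004690 was no member because it was among the 100 most abundant genes. Such genes were chosen for their likeness, and their number says nothing of shared function or control.

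**Figure D4:**
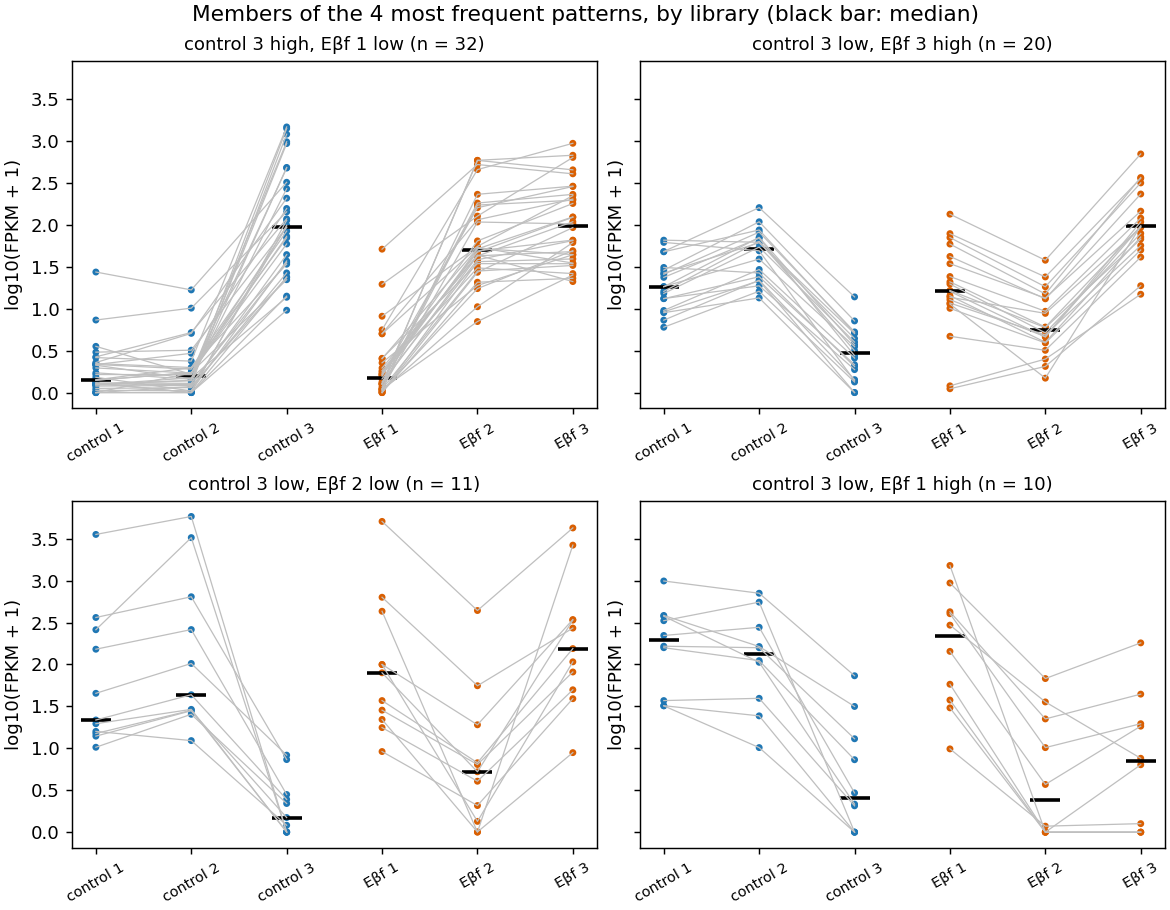
Points are members of the 4 most frequent patterns, with log10(FPKM + 1) on the y axis and the 6 libraries on the x axis (control in blue, Eβf in orange). Grey lines join the libraries of a member within its group and black bars are medians. In the first panel the medians are 92.9 FPKM in control 3 and 0.412 and 0.569 in control 1 and 2.

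The second pattern, control 3 low with Eβf 3 high, was made up of MSTRG loci in 18 of its 20 members. MSTRG loci were 66.0% of all members and 41.2% of the 3241 genes. Their share among the 822 genes of this pattern that met the conditions is not given here. The median FPKM of the 20 members was 17.3, 50.7 and 1.96 in control 1 to 3 and 15.3, 4.56 and 95.3 in Eβf 1 to 3. Here Eβf 2 lay low beside control 3. Across the members, control 1, control 2, Eβf 1 and Eβf 3 were all above control 3 and Eβf 2 in 39 (26.0%, beside 18.4% of the 3241 genes), and 33 of the 39 were MSTRG loci. The gap was smaller than in the first pattern, with a median of 2.37 times between the lowest high library and the highest low one.

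MSTRG.8411, with the highest smaller SD of the second pattern (3.02), had 60.8, 48.0 and 0.385 FPKM in control 1 to 3 and 10.4, 0.486 and 96.2 in Eβf 1 to 3. MSTRG.27767 had 46.7, 86.0 and 4.15 FPKM in the control and 58.1, 14.0 and 366 in Eβf. Its neighbour MSTRG.27768 was also a member and showed the same pattern. MSTRG.28373, the last member by rank, had 25.6, 60.2 and 3.42 FPKM in the control and 33.5, 12.4 and 145 in Eβf. Control 3 was the lowest library and Eβf 3 the highest in MSTRG.8411, MSTRG.27767 and MSTRG.28373. Of the 20 members of the pattern, 16 had r of 0.95 or more with their mean profile, and the lowest r was 0.49. At r of 0.95 or more with the mean profile of the pattern over the 6 libraries were 410 of the 12042 genes, and 375 of them were MSTRG loci (91.5%, beside 48.7% of the genes compared). Of the 375, 84.0% had an ID number above 25000, as had 35.4% of the MSTRG loci compared. Against MSTRG.26920, the most abundant of the 21 members in this set that were above 0 throughout, the ratio of another member's FPKM varied between libraries by 1.68 to 11.7 times (median 2.49), while MSTRG.26920 itself ran from 7.29 in control 3 to 342 in Eβf 3. Whether these loci share reads was not tested.

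The second pattern depended on how the libraries were scaled, and the first did not. With median-of-ratios scaling all 32 members of the first pattern kept it, as they did with quantile normalization. Of the 20 members of the second, 4 kept it with median-of-ratios scaling and 7 with quantile normalization, and its share of the 3241 genes fell from 25.4% to 8.24% and 11.0%. Of the 39 members with control 3 and Eβf 2 below the other 4 libraries, 36 kept that order with median-of-ratios scaling and 37 with quantile normalization.

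The next patterns by frequency shared a low control 3 and differed in Eβf. evm_000085, with Eβf 2 set apart as low, had 151, 260 and 1.81 FPKM in control 1 to 3 and 78.6, 4.25 and 337 in Eβf 1 to 3, with SDs of 3.57 and 3.05. MSTRG.20093, with Eβf 1 set apart as high, had 376, 105 and 1.16 FPKM in the control and 57.1, 0 and 5.37 in Eβf. It was high in control 1, control 2 and Eβf 1, the libraries that were low in the first pattern. MSTRG.8314 showed the same pattern, with 36.1, 38.5 and 1.06 FPKM in the control and 8.84, 0.179 and 0.264 in Eβf.

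The members at the top of the ranking were mostly loci listed at 0 in some libraries, which was so for 15 of the first 20. Ranking by SD places such loci high by its construction. The 67 members with a 0 reached a median of 82.0 FPKM in their highest library (21.5 to 5824). Their zeros fell on 31 different sets of libraries. Each library was at 0 in 19 to 24 members, so no single library held the zeros. Over the 3241 genes it was 49 in control 3, the fewest, to 76 in control 2. In 14 members only control libraries were at 0 and in 11 only Eβf libraries, and these counts over the 3241 genes are not given here. A listed 0 can be a failed estimate and does not show that RNA was absent, so no fold is given against it, and a difference of log2(FPKM + 1) means that includes one rests on the pseudocount.

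Several of the first 10 members had a neighbouring ID that was high where they were at 0. MSTRG.7131, the first by rank, was listed at 1855, 1780.4 and 0 FPKM in control 1 to 3 and at 0, 2599 and 1543 in Eβf 1 to 3. MSTRG.7130, the third by rank, was listed at 0, 0 and 1038 FPKM in the control and at 1237, 0 and 939.6 in Eβf. In 5 of the 6 libraries exactly 1 of the 2 loci was above 0, and in Eβf 3 both were. Their sum was 1855, 1780.4 and 1038 FPKM in the control and 1237, 2599 and 2483 in Eβf, and its SD in log2 was 0.47 and 0.60 where the single loci had 5.79 to 6.34. Most of the spread of each locus was thus not present in the sum of the pair.

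MSTRG.2021 was listed at 3554, 5824 and 0 FPKM in control 1 to 3 and at 430.1, 0 and 2648 in Eβf 1 to 3. MSTRG.2022, also a member, was listed at 1615, 0 and 3210.2 FPKM in the control and at 3395, 2809.8 and 278 in Eβf. Each was lowest where the other was high, and the sum of the pair had an SD of 0.45 in the control and 0.24 in Eβf. MSTRG.22770 was listed at 0, 0 and 926 FPKM in the control and at 1110.2, 55.7 and 0 in Eβf. Its neighbour MSTRG.22769, no member and chosen after its values were seen, had 2373, 2508 and 1421 FPKM in the control and 424, 1667 and 1545 in Eβf, and the sum had SDs of 0.051 and 0.094. FPKM is scaled to the length of each locus, so a sum of 2 loci is only a rough total.

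MSTRG.1675 was listed at 0, 634 and 396 FPKM in the control and at 1955, 0 and 1763 in Eβf. Its neighbour MSTRG.1674, no member and picked after its values were seen, was listed at 162, 169 and 106 FPKM in the control and at 0, 519 and 0 in Eβf, so that in each Eβf library one locus of the pair was at 0. The sum of this pair still had SDs of 1.18 in the control and 1.06 in Eβf. MSTRG.1824 was listed at 332, 553 and 0 FPKM in the control and at 1515, 0 and 0 in Eβf. MSTRG.11970 was listed at 145, 0 and 211 FPKM in the control and at 19.4, 324 and 0 in Eβf. MSTRG.1675, MSTRG.1824 and MSTRG.11970 each changed within both groups between a listed 0 and more than 100 FPKM, and they were at 0 in different sets of libraries. A next ID that was above 0, at any level, and higher in every library where the locus was at 0 than in any other library was found for 14 of the 67 members with a 0 (20.9%), beside 16.4% of the 225 such genes among the 3241.

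**Figure D5:**
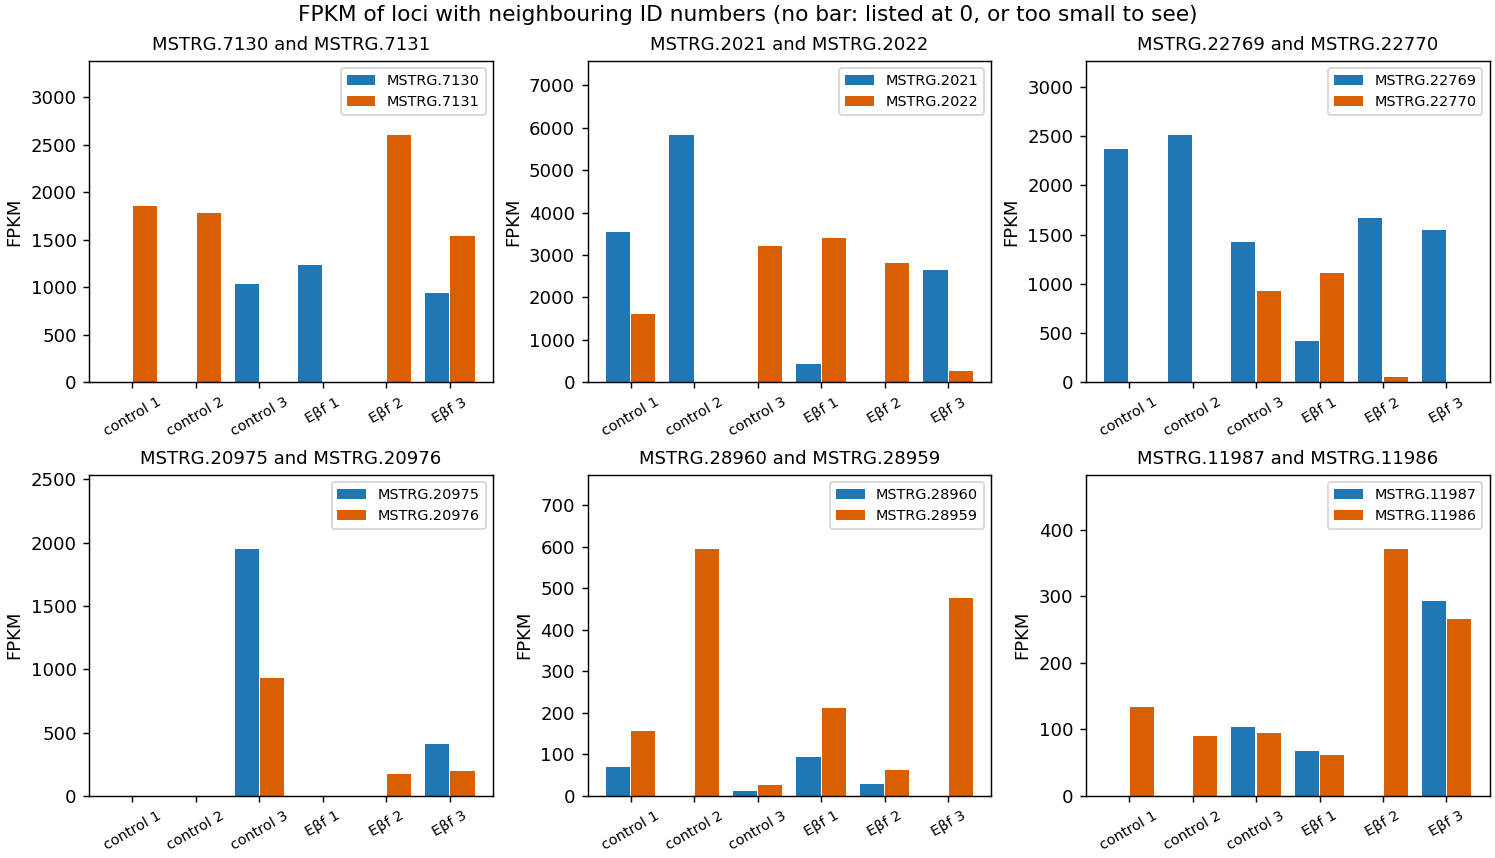
Bars give the FPKM of 2 loci with neighbouring ID numbers in each of the 6 libraries, on linear axes. In the upper panels 1 locus is listed at 0 where its neighbour is high, as in control 1, where MSTRG.7130 is at 0 and MSTRG.7131 at 1855, and in the lower panels both keep 1 ratio except where 1 of them is listed at 0.

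Other neighbours held a fixed ratio. MSTRG.20975 and MSTRG.20976 were both members. MSTRG.20975 was listed at 0.557, 0.807 and 1952 FPKM in control 1 to 3 and at 0.357, 0 and 410.0 in Eβf 1 to 3. MSTRG.20976 had 0.266, 0.385 and 932 FPKM in the control and 0.171, 171 and 196 in Eβf. In the 5 libraries where both were above 0, MSTRG.20975 was 2.09 times MSTRG.20976 with a spread of 0.0188% between libraries, and in Eβf 2 it was at 0 while MSTRG.20976 was at 171. The 0 alone placed MSTRG.20975 in another pattern than its neighbour.

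A neighbour within 3 ID numbers whose ratio varied by less than 0.5% over at least 3 libraries with both above 0 was found for 14 members (9.33%), beside 7.19% of the 3241 genes. In 12 of these members the locus was listed at 0 in a library where the neighbour was not (8%, beside 1.91%). Among genes with a listed 0, however, such neighbours were found for 12 of the 67 members (17.9%) and for 27.6% of the 225 genes. MSTRG.28960 was listed at 69.7, 0 and 12 FPKM in the control and at 94.5, 27.7 and 0 in Eβf. Its neighbour MSTRG.28959, no member, was 2.24 times as high in the 4 libraries where both were above 0, and had 595 FPKM in control 2 and 475 in Eβf 3, its highest values, where MSTRG.28960 was at 0. MSTRG.28960 had SDs of 3.09 and 3.41 although MSTRG.28959 was above 0 throughout, from 26.8 FPKM in control 3 to 595 in control 2. Not every such neighbour was above 0 throughout, since MSTRG.20452, next to MSTRG.20453, was at 0 in Eβf 2. A further 3 members, evm_002577, evm_002657 and evm_005312, had the values of a neighbouring model in every library, and the 2 copies of each cannot be told apart.

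Some members lay next to each other in ID order. Of 113 pairs of a member and a gene within 3 ID numbers that met the conditions, the neighbour was itself a member in 16 (14.2%), while members made up 4.63% of the genes that met the conditions. These were 8 pairs of IDs, and 3 of the pairs shared a pattern.

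The within-group deviations were also split into axes. The first axis held 46.1% of the within-group sum of squares of the members, and the second 26.2%, beside 49.7% and 26.1% over the 3241 genes. In the members the first axis set control 3, Eβf 2 and Eβf 3 on one side and control 1, control 2 and Eβf 1 on the other. Over the 3241 genes it had other sides, so the shares are not of the same axis. There the weights of control 3 and Eβf 2, their parts in the axis, were 0.769 and 0.233. Eβf 1 (-0.020) and Eβf 3 (-0.212) lay on the side of control 1 and control 2. In the 83 members above 0 in all libraries the first axis had the same sides as in all members and held 64.1%. The first axis of the 67 with a 0 held 34.4% and mainly set control 3 (0.808) against control 1 and control 2. The weights of Eβf 1 to 3 on it were only -0.109, 0.022 and 0.087. Across the 83 genes the deviations of control 3 and Eβf 2 had r of 0.66 and those of control 3 and Eβf 1 had r of -0.65. Across the 67 genes with a 0 the same values were 0.0034 and -0.023, over all 150 members 0.29 and -0.30, and over the 3241 genes 0.31 and -0.19. Genes are not independent replicates, and deviations within a group sum to 0, so these values describe the table only. For these pairs of libraries the values were thus largest in size in the members without a 0. Over all members the value of control 3 with Eβf 2 was close to that over the 3241 genes. That of control 3 with Eβf 1 was larger in size, -0.30 beside -0.19.

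Differences between the group means were small beside the spread. The mean of log2(FPKM + 1) was higher in Eβf in 106 members (70.7%) and lower in 44, beside 60.8% higher among the 3241 genes. The share higher was 66.0% of the members with median-of-ratios scaling and 62.0% with quantile normalization, and 58.1% and 46.1% of the 3241 genes, whose median difference moved from 0.19 to 0.15 and -0.056. The members' median was 0.59, 0.58 and 0.49 in the same order. In 4 members (2.67%) the difference of the means exceeded both within-group SDs, as it did in 18.4% of the 3241 genes. The rule set both the spread and the overlap, so these shares are no result about Eβf.

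At the ends of this range stood 4 members, and each value is given with its range when 1 library is left out. MSTRG.11990, also the most abundant member, was listed at 259, 3256 and 0 FPKM in control 1 to 3 and at 5083, 439 and 4248 in Eβf 1 to 3, and its mean was 4.49 higher in log2 in Eβf, which was 1.20 without control 3, where it was at 0, and 7.04 without control 2. evm_002066, given above, followed with 4.46 (3.23 to 5.79). evm_005312 had 64.7, 61.1 and 4.06 FPKM in the control and 0.203, 1.51 and 13.9 in Eβf, and its difference was -2.95 (-4.17 to -2.17). MSTRG.20093, with a listed 0 in Eβf 2, had -2.62, which was -1.20 without Eβf 2, -1.08 without control 1, -4.80 without control 3 and -4.13 without Eβf 1. In all 4 the ranges of the groups overlapped, as the rule required, and within-group SDs were 1.87 or more.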

How the data were processed

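Poly(A) RNA of 3rd instar larvae was sequenced in 3 libraries per group, which the methods call biological replicates. Reads were mapped by the authors with HISAT2 and loci were built and measured with StringTie, both named in the submitters' processing notes. Their deposited values are FPKM, in 1 table with a column for each library. For the versions, the genome build and the annotation, the answer is not given in the sources used here. Line 2 of the table, which holds other library codes, was skipped. TFN was read as farnesene and TYC as solvent control, and 0 value columns were unused.

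The deposited FPKM values were transformed to log2(FPKM + 1), which understates differences of low genes, and no count model was run because the table holds no counts. The table holds no read totals, those listed by the study were not used, and the counting error of a value was not computed. Relative depth was the most frequent ratio of values under 0.3 FPKM. The rule that selected the members is given in the report, and the members and lists were chosen with earlier results of these data known. Hence no test was made and no p-value is given. Named genes were the 10 members with the highest smaller SD, the first 2 members of each of the 4 most frequent patterns, ranks 149 to 152, the 3 members with the highest mean, the members of the 2 longest runs of IDs (all 8 runs held 2 IDs, and the tie went to the runs whose first ID had the higher rank), the first 3 members under 1 FPKM in a library of each group, and the 2 highest and 2 lowest differences of group means. Members of the study's qPCR list would also have been named. Other genes were picked after their values were seen. The likeness, neighbour and ratio scans were designed after the values were seen. The scripts were tested on simulated data. Python 3.11.15, numpy 2.4.6, pandas 2.3.3 and matplotlib 3.10.9 were used.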

Additional observations from a re-analysis of the deposited data

How the results depend on the processing

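The 10 alternatives listed at the start and each library left out were run, and leaving out genes listed at 0 was added after seeing the data. Of the 150 members, 103 to 148 were also chosen with pseudocounts of 0.1 and 0.01, minimum means of 5 and 20 FPKM, no abundant genes dropped, no overlap required, identical rows kept, or either scaling. Ranking by the mean of both SDs kept 96, and leaving out genes at 0 kept 83, all of the members without a 0, by its construction. Leaving out 1 library kept 59 to 112. The pattern that led in the main setting, control 3 high with Eβf 1 low, held 32 to 46 of the 150 genes chosen under the settings with 6 libraries. It cannot be defined with 2 libraries in a group. With genes at 0 left out it held 36 of 150 and was no longer the most frequent, since the pattern with control 3 low and Eβf 3 high held 40. The median smaller SD was 3.07 and 3.61 with pseudocounts of 0.1 and 0.01, and 1.57 to 2.36 with 1 library left out. The first axis held 59.2% without genes at 0, and 51.2% to 61.4% with 1 library left out. Leaving out a library leaves fewer axes to share the sum of squares. That range is thus not directly comparable with the 46.1% of the main setting. For the 20 named members, leaving out 1 library moved the difference of the means by over 1.5 times or changed its sign in 18, all but evm_002066 and evm_005312, and changed the sign in 10. No paired analysis was possible because the results come from no test, and the labels give replicate numbers with no shared origin. The unknown counts behind each value limit what can be said of values near 0.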
